A study of Mus musculus with 72 samples.

Results

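The genes described here encode proteins of the synaptic vesicle cycle, the presynaptic active zone and the postsynaptic density of mouse brain. Of 32 listed genes, 24 presynaptic and 8 postsynaptic, a gene was taken where an array probe set carried its symbol alone, and the probe set with the highest mean over all 72 arrays stood for it. That gave 31 genes of 18194 on the array, 24 presynaptic and 7 postsynaptic. Shank2 was not analysed here. All 31 passed the filter on dim genes in brain, a highest group mean above 6.66 log2 units (the median of all values), as did 14181 of the 18194 genes. Syt2, Nlgn1 and Shank1 had group means on both sides of that limit. Syt2 and Nlgn1 were above it in 9 brain groups of 12 and Shank1 in 3, and all 3 were below it in every strain at E14.5.

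Brain and liver, each taken whole, were profiled in untreated males, with no engineered allele named in the labels, at the embryonic stage E14.5 and on postnatal days 1, 7 and 90 (P1, P7, P90). The 3 inbred strains were 129S2, DBA/2J (called D2) and C57BL/6J (called B6). B6 and D2 mice came from The Jackson Laboratory and 129S2 from Charles River. The P90 mice were bought animals of 11 to 14 weeks, and the labels give the younger mice as the F1 generation, read here as the first generation bred from such animals within a strain, those at E14.5 and P1 being sexed by a molecular test. Each of the 24 groups had 3 arrays; nothing in the labels says whether these came from separate or pooled animals, so p-values measure the spread between arrays, which may be technical. The number of arrays limits the precision.

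At a chemical synapse, vesicles loaded with transmitter fuse with the presynaptic membrane when calcium binds synaptotagmin and the SNARE proteins zip together, and the membrane is then taken back by endocytosis. Opposite the release site, scaffold proteins of the postsynaptic density anchor glutamate receptors, and neurexins and neuroligins bridge the cleft. Synapses form in mouse brain mostly after birth, so transcripts of this machinery are widely used to follow neuronal maturation.

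The arrays matched their tissue labels: the mean level of 8 neuronal markers lay between 11.10 and 11.40 log2 units in the E14.5 brain groups and between 5.92 and 6.01 in E14.5 liver. The mean of 4 measured hepatocyte markers was at least 13.58 in every liver group. In the brain groups the same list was not dim, with means of 7.59 to 10.75. Replicate 3 of B6 at E14.5 stood apart from the other E14.5 brain arrays. It was the highest of the 9 arrays in 19 of the 31 genes, its neuronal markers averaged 11.68 against 11.02 to 11.31 in the others, and its markers of progenitors and new neurons averaged 10.66 against 11.03 to 11.66. Replicate 2 of B6 at E14.5 had a mean hepatocyte marker level of 11.40 against 8.26 to 10.36 in the others. Its blood markers were also highest, at 9.71 against 8.78 to 9.32. In bulk tissue, fewer cells of a type and less RNA per cell cannot be told apart.

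Sequence upstream of the start site is shown for 5 of the genes on which the results turn: Sh3gl2 and Rims1, which differed between strains at E14.5, Cplx1, whose strain difference varied with stage, and Syn1 and Slc17a7, whose brain means on a common scale were higher at each later stage. RefSeq gave promoter windows for 27 of the 32 genes (mouse build GRCm38.p6). Each line holds the 250 bases before the start, 5′ to 3′ in the gene's direction, with matches on either strand in capitals.
Sh3gl2, chr4:85205206-85205455, plus strand: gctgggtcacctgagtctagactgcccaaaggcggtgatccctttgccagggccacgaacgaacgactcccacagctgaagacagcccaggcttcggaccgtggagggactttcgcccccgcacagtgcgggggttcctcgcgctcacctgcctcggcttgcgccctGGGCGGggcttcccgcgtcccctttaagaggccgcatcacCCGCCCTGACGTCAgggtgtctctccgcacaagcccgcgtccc
Rims1, chr1:22806159-22806408, minus strand: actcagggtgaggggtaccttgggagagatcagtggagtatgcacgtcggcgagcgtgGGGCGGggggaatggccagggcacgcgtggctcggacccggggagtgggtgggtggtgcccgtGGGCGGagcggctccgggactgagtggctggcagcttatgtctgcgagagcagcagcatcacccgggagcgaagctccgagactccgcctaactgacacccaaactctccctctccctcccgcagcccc
Cplx1, chr5:108550028-108550277, minus strand: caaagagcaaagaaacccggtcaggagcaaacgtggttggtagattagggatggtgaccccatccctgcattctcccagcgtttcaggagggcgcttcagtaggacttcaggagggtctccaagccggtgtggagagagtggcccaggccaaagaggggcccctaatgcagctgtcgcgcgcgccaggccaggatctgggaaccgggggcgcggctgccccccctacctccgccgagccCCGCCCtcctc
Syn1, chrX:20920919-20921168, minus strand: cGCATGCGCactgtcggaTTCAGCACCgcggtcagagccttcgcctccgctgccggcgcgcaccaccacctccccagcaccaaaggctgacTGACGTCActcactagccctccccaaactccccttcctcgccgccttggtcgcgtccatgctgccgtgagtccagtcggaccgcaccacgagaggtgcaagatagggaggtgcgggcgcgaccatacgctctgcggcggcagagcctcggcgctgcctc
Slc17a7, chr7:45163671-45163920, plus strand: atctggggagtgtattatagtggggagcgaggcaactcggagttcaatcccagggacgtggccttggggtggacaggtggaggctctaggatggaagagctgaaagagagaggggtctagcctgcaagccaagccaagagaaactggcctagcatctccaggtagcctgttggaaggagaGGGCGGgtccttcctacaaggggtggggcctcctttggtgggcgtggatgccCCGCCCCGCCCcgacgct
The letters searched were TGACGTCA (the cyclic AMP response element), GCATGCGC (an NRF1 core), TTCAGCACC (part of the RE1 element bound by the neuronal repressor REST), GGGCGG (the GC box) and TATAAA (the TATA box). The GC box was found on either strand in the windows of 18 of the 27 genes, and in 32.7% of all 32851 windows of that length against 43.2% of the 44 windows of these genes. TGACGTCA was found in Sh3gl2 and Syn1 and in 1.55% of all windows. TTCAGCACC was found in Nlgn1 and Syn1 and in 0.301% of all windows. GCATGCGC was found in Bsn and Syn1 (2.26% of all windows) and TATAAA in Dlg2 and Sv2b (12.4% of all windows). In Sh3gl2 a GC box read on the minus strand directly adjoins TGACGTCA, and Syn1 holds 3 of the 5 motifs. These matches describe letters in a window and say nothing of binding.

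Across brain development most synaptic transcripts were more abundant in the adult than in the embryo. The authors had normalized each tissue and stage on its own, so stages were put on a common scale by quantile normalization of the 36 brain arrays, differences between stages are sizes without a p-value, and a gene was counted where it differed at least 2-fold in the same direction in each of the 3 strains. By that count 17 of 24 presynaptic and 5 of 7 postsynaptic genes were higher at P90 than at E14.5 (12.1% of all genes tested) and none was lower (15.9%). The median P90 minus E14.5 difference was 1.82 log2 units over the presynaptic and 2.25 over the postsynaptic genes, against -0.20 over all genes tested. Without the common scale the all-gene median was -0.96, with 796 genes counted higher and 6118 lower in place of 1716 and 2260, and 15 of the 31 were counted higher and 1, Nrxn3, lower. In 24 of the 31 the mean difference was above 0 under each of 4 scalings.

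**Figure D1:**
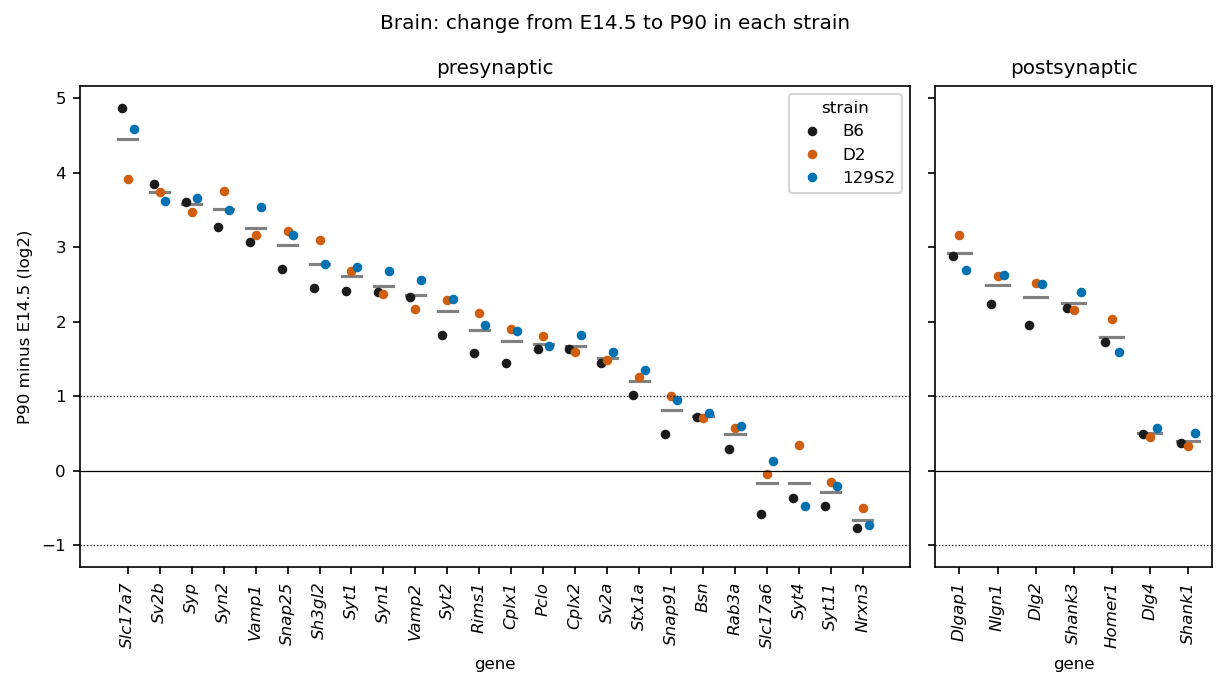
P90 minus E14.5 difference (log2 units, y axis) of each gene in brain; dots are the 3 strains, each the difference of 2 means of 3 arrays, grey bars their mean, and dotted lines mark 2-fold. Slc17a7 has the highest mean at 4.45 and Nrxn3 the lowest at -0.67, and the postsynaptic genes lie between 0.40 and 2.92. The Nrxn3 probe set did not differ 2-fold between brain and liver.

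Among vesicle membrane proteins and transporters, Slc17a7 (VGLUT1, which loads glutamate into vesicles of cortical and hippocampal neurons) had the highest mean difference of the 31. On the common scale its B6 arrays read 6.30, 6.69 and 6.74 log2 units at E14.5 and 7.05, 7.52 and 7.71 at P1. The P7 arrays read 8.71, 9.69 and 10.11, and the P90 arrays 11.36, 11.45 and 11.52. In B6 the arrays of successive stages did not overlap. The P90 minus E14.5 difference was 4.45 ± 0.49 log2 units (mean ± SD, n = 3 strains), of which 15.2 ± 4.8% had appeared by P1 and 62.8 ± 5.0% by P7. Slc17a6 (VGLUT2, its counterpart in subcortical neurons) differed by -0.16 ± 0.37 over the same span, with B6 arrays of 10.67, 10.77 and 11.65 at E14.5 and 10.15, 10.50 and 10.71 at P90, which overlap. The 2 vesicular glutamate transporters thus had different courses in the same arrays. Syp (synaptophysin, an abundant vesicle membrane protein) was higher by 3.58 ± 0.09 and Sv2b (a vesicle glycoprotein) by 3.74 ± 0.12, each 2-fold or more from E14.5 to P1 and again from P1 to P7. Sv2a, the paralog of Sv2b, differed by 1.51 ± 0.07.

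The 4 SNARE genes were all counted as higher at P90 than at E14.5, but at different steps. Snap25, a SNARE of the plasma membrane, differed by 3.03 ± 0.28 log2 units, of which 49.3 ± 6.4% had appeared by P1. Vamp1, the vesicle SNARE prominent in brainstem and spinal cord, was late. Its D2 arrays read 7.99, 8.01 and 8.15 at E14.5, 8.54, 8.83 and 9.05 at P7, and 11.06, 11.22 and 11.38 at P90 on the common scale. Only 24.7 ± 2.4% of its difference of 3.26 ± 0.25 had appeared by P7. Vamp2, the main vesicle SNARE of the forebrain, differed by 2.35 ± 0.19 with 76.0 ± 4.9% present by P7. Stx1a (syntaxin 1A, the other plasma membrane SNARE) peaked at P7 in each strain. Its 129S2 arrays read 10.51, 10.64 and 10.82 at E14.5, 12.70, 12.75 and 12.76 at P7, and 11.95, 11.95 and 12.11 at P90, so that P7 stood above both other stages without overlap. Its P90 minus P7 difference was -0.74 ± 0.12, below 0 under each of 4 scalings.

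The synaptotagmins are vesicle proteins of which some, Syt1 and Syt2 among them, sense calcium for fusion, and their courses differed by gene. Syt1, the fast sensor of the forebrain, was higher at P90 than at E14.5 by 2.61 ± 0.17 log2 units, with 82.9 ± 5.0% of that present by P7. Syt2, the fast sensor of brainstem and spinal cord, differed by 2.14 ± 0.28, with 36.5 ± 4.6% present by P7, and so was late like Vamp1. Syt4 was highest at P1 in each strain and Syt11 at P7. Both had a P90 minus P7 difference below 0 under each scaling, -0.92 ± 0.41 for Syt4 and -0.79 ± 0.04 for Syt11, and neither was counted between P90 and E14.5.

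Of the remaining presynaptic genes, Syn1 and Syn2, the synapsins that tether vesicles to one another, differed between P90 and E14.5 by 2.48 ± 0.17 and 3.51 ± 0.25 log2 units. Rab3a, a small GTPase of the vesicle, differed by 0.49 ± 0.17 and was not counted. The complexins, which clamp and promote SNARE fusion, parted after P7. Cplx1 had a P90 minus P7 difference of 0.74 ± 0.09, and Cplx2 one of -0.24 ± 0.17, and each sign held under each of 4 scalings. At the active zone, Rims1 (a scaffold that links vesicles and calcium channels) differed by 1.89 ± 0.27 from E14.5 to P90 and Pclo (piccolo) by 1.71 ± 0.10, whereas Bsn (bassoon) differed by 0.74 ± 0.04 and was not counted. Nrxn3, a presynaptic adhesion receptor, had a mean of -0.67 ± 0.15, the lowest of the 31. The probe set that stood for Nrxn3 read about as high in liver, with a brain minus liver difference of -0.08 ± 0.14 at E14.5. A further Nrxn3 probe set was brighter in E14.5 brain (10.76 against 10.23), so the course given is that of 1 probe set. Of the endocytosis genes, Sh3gl2 (endophilin A1) differed by 2.77 ± 0.32 and Snap91 (the clathrin adaptor AP180) by 0.82 ± 0.29, the latter not counted.

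**Figure D2:**
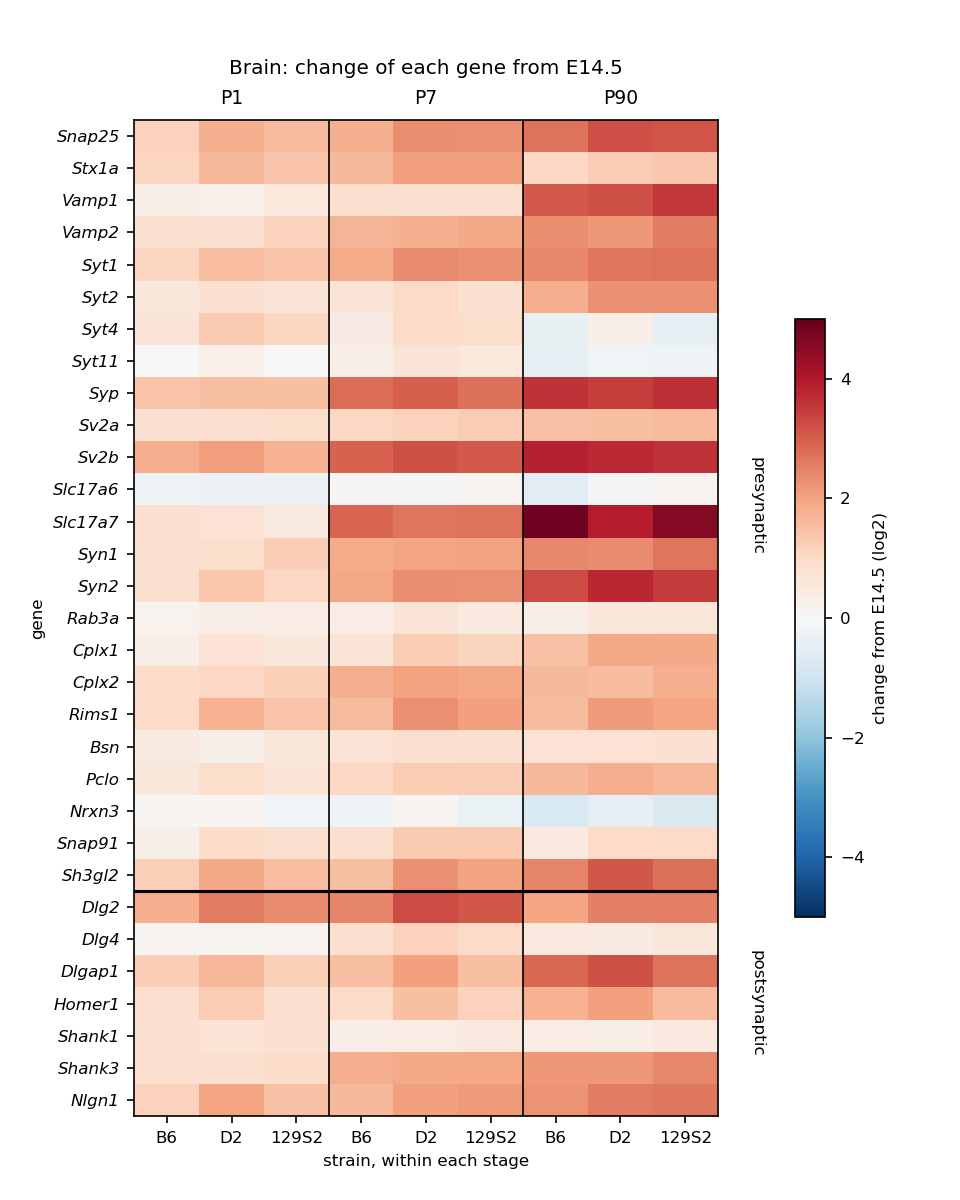
Mean change of each gene from E14.5 in brain (log2 units, colour; red is higher than at E14.5) at P1, P7 and P90 in the 3 strains, after quantile normalization of 36 brain arrays. Stx1a and Dlg2 are redder at P7 than at P90 in each strain, and Vamp1 and Syt2 are pale at P1 and P7 and redder at P90.

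On the postsynaptic side, 2 of the 3 genes of the PSD-95 family and its partner were counted. Dlg2 (PSD-93) had the largest difference of any of the 31 between E14.5 and P1, 2.25 ± 0.39 log2 units, and then a P90 minus P7 difference of -0.59 ± 0.13. Its B6 arrays read 8.44, 8.63 and 9.02 at E14.5 and 10.29, 10.60 and 10.67 at P1. They read 10.91, 11.23 and 11.24 at P7 and 10.64, 10.64 and 10.68 at P90. The P1 arrays were all above those of E14.5 and the P90 arrays all below those of P7. Dlg4 (PSD-95, the most abundant scaffold of the density) was also highest at P7 in each strain, with a P7 minus P1 difference of 0.84 ± 0.17, and differed by 0.51 ± 0.06 over the whole span. Dlgap1, which joins Dlg proteins to Shank proteins, had its largest differences at the first and the last step, 1.35 ± 0.26 from E14.5 to P1 and 1.22 ± 0.13 from P7 to P90.

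Homer1 and the Shank proteins form the deeper layer of the scaffold. Homer1 differed between P90 and E14.5 by 1.79 ± 0.22 log2 units and Shank3 by 2.25 ± 0.13, of which 37.9 ± 0.4% in Shank3 had appeared by P1. Shank1, above the limit on dim genes in only 3 brain groups (highest group mean 6.82), was highest at P1 in each strain. Its difference of 0.40 ± 0.09 was not counted. Nlgn1 (neuroligin 1, the adhesion receptor of excitatory synapses) differed by 2.49 ± 0.22. Its P7 arrays were uneven: in the deposited values replicate 2 lay between 8.93 and 9.06 in the 3 strains, and the other 6 arrays lay between 7.52 and 7.91. The unevenness followed the replicate number in all 3 strains.

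Presynaptic and postsynaptic genes had medians close to one another at each step. Between E14.5 and P1, 6 of 24 presynaptic and 3 of 7 postsynaptic genes were counted as higher (4.49% of all genes tested), and none as lower (3.21%). Between P1 and P7 the counts were 3 of 24 and 0 of 7 (1.23%), none lower (0.338%), and between P7 and P90 they were 4 of 24 and 1 of 7 (4.01%), none lower (9.82%). In the deposited values the last step turned over, with 1 of the 31 higher and 6 lower, and 142 of all genes higher and 5372 lower. The presynaptic median minus the postsynaptic median was -0.15 ± 0.22 log2 units (SD over 3 strains) for the first step, 0.03 ± 0.12 for the second and 0.09 ± 0.08 for the third. For the first and the second step its sign differed between strains. Over the whole span it was -0.32 ± 0.17, below 0 in each strain. Genes within a side differed far more, from -0.67 to 4.45 among presynaptic and from 0.40 to 2.92 among postsynaptic genes. Of the 22 counted genes, a median of 41.6% of the presynaptic and 55.0% of the postsynaptic difference had appeared by P1, and 75.8% and 77.3% by P7. The last step depended on the scale: its medians were 0.48 and 0.37 on the common scale and -0.12 and -0.31 in the deposited values, against -0.17 and -0.88 over all genes tested. In 11 of the 31 P90 exceeded P7 under each scaling, and in 9 P90 was below P7 under each.

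Other genes of the same compartments were read for context. Of 36 further presynaptic genes, 30 were tested, and 17 were counted as higher at P90 than at E14.5 and 0 as lower, with a median of 1.33 log2 units. The largest were Snph (syntaphilin, which docks axonal mitochondria) at 3.14 ± 0.12, Napb at 3.02 ± 0.22 and Nsf at 2.81 ± 0.25; Napb and Nsf take SNARE complexes apart. Of 28 further postsynaptic genes, 25 were tested, and 15 were counted as higher and 0 as lower, with a median of 1.67. Nrgn (neurogranin, a calmodulin-binding protein of dendritic spines) differed by 5.23 ± 0.21, Synpo (synaptopodin, of the spine apparatus) by 4.30 ± 0.07 and Cnksr2 by 3.34 ± 0.07. In the deposited values the counts were 9 higher and 2 lower (median 0.64) for the presynaptic list and 10 higher and 4 lower (median 0.95) for the postsynaptic list. Cell type markers moved over the same span: 4 of 8 neuronal markers were counted higher and 2 lower (median 0.73, or 3 and 3 with a median of 0.14 in the deposited values), all 7 markers of progenitors and new neurons lower (median -3.79), 4 of 7 astrocyte markers higher (3.46) and 5 of 6 myelin markers higher (3.40). Their part in the synaptic differences was not tested.

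Strains were compared within each stage, on the deposited values, with limma over the 36 brain arrays. A call needed a strain difference of 1.5-fold or more whose p, adjusted over 14181 genes by Benjamini-Hochberg, was below 0.05. At E14.5, 2 of the 31 genes were called between D2 and B6 (4.39% of all genes tested), Sh3gl2 and Rims1, both lower in D2. None was called between 129S2 and B6 (3.24%) or between 129S2 and D2 (1.54%), where limma gave an unadjusted p below 0.05 for 10 and 8 genes. By adjusted p alone, without the fold minimum, 14 of the 31 were lower in D2 than in B6 (7.53% of all genes tested) and none was higher. By the same rule 8 were lower in 129S2 than in B6 (5.47%), none higher, and 3 were higher in 129S2 than in D2 (2.33%). The comparisons of D2 and of 129S2 with B6 share the B6 arrays. With limma fitted to the 9 arrays of E14.5 alone, 1 gene, Sh3gl2, passed the adjusted p in D2 against B6 and 0 in 129S2 against B6. In that fit 13 and 8 had an unadjusted limma p below 0.05. The share of all genes passing in that fit is not given here, so these counts have no background beside them.

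Sh3gl2, whose protein bends the membrane of vesicles being retrieved, had E14.5 values of 10.04, 10.06 and 10.18 log2 units in B6, 9.13, 9.47 and 9.15 in D2, and 9.82, 9.64 and 9.50 in 129S2. The 3 strains did not overlap, B6 being highest and D2 lowest. D2 was lower than B6 by a log2 difference of -0.84 ± 0.08 (SE; limma, adjusted p = 1.51e-08, n = 3 arrays a group), a fold of 1.79. 129S2 was lower than B6 by -0.44 ± 0.08 (limma, adjusted p = 0.00052) and higher than D2 by 0.40 ± 0.08 (limma, adjusted p = 0.0023). Both further probe sets of Sh3gl2 gave D2 minus B6 differences of -0.81 and -0.88, each past the same test.

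Rims1 read 9.38, 9.45 and 10.08 in B6, 8.88, 9.03 and 8.82 in D2, and 9.05, 9.25 and 9.48 in 129S2. D2 lay below B6 without overlap, 129S2 overlapped B6, and B6 replicate 3 was the highest array by far. D2 minus B6 was -0.73 ± 0.12 (SE; limma, adjusted p = 7.05e-05) and 129S2 minus B6 -0.37 ± 0.12 (limma, adjusted p = 0.040). A second Rims1 probe set gave -1.02 ± 0.32 for D2 minus B6. Without B6 replicate 3 the D2 difference was -0.51 ± 0.10, under the fold minimum (limma, adjusted p = 0.00051).

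The 14 genes lower in D2 than in B6 at E14.5 by adjusted p were the SNARE genes Snap25 and Stx1a, the synaptotagmins Syt1, Syt4 and Syt11, Rab3a, Cplx1, the active zone genes Rims1 and Pclo, the endocytosis genes Sh3gl2 and Snap91, and the scaffolds Dlg2, Dlgap1 and Homer1. Of the 5 vesicle membrane proteins and transporters, 0 passed in limma, and 0 had an unadjusted p below 0.05. Snap25 read 11.22, 11.24 and 11.79 in B6, 10.90, 11.05 and 10.74 in D2, and 10.93, 10.86 and 11.05 in 129S2. Both other strains lay below B6 without overlap, by -0.52 ± 0.10 (limma, adjusted p = 0.00078) and -0.47 ± 0.10 (limma, adjusted p = 0.0034). Stx1a read 11.15, 11.11 and 11.49 in B6, 10.91, 10.84 and 10.59 in D2, and 10.84, 10.75 and 10.97 in 129S2, again without overlap with B6, and differed from it by -0.47 ± 0.09 in D2 and -0.40 ± 0.09 in 129S2 (limma, adjusted p = 0.00027 and 0.0026). Dlgap1 parted from these: its B6 arrays, 8.46, 8.51 and 8.74, and its 129S2 arrays, 8.62, 8.90 and 8.31, overlapped, and its D2 arrays, 7.83, 8.08 and 8.23, lay below both, by -0.53 ± 0.13 against B6 (limma, adjusted p = 0.0054). Homer1 was the other postsynaptic gene lower in D2 than in both strains, with D2 minus B6 of -0.27 ± 0.08 (limma, adjusted p = 0.016) and 129S2 minus D2 of 0.30 ± 0.08 (limma, adjusted p = 0.023). None of the further Homer1 probe sets passed the adjusted p in either comparison, and for D2 minus B6 they lay between -0.35 and 0.01.

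**Figure D3:**
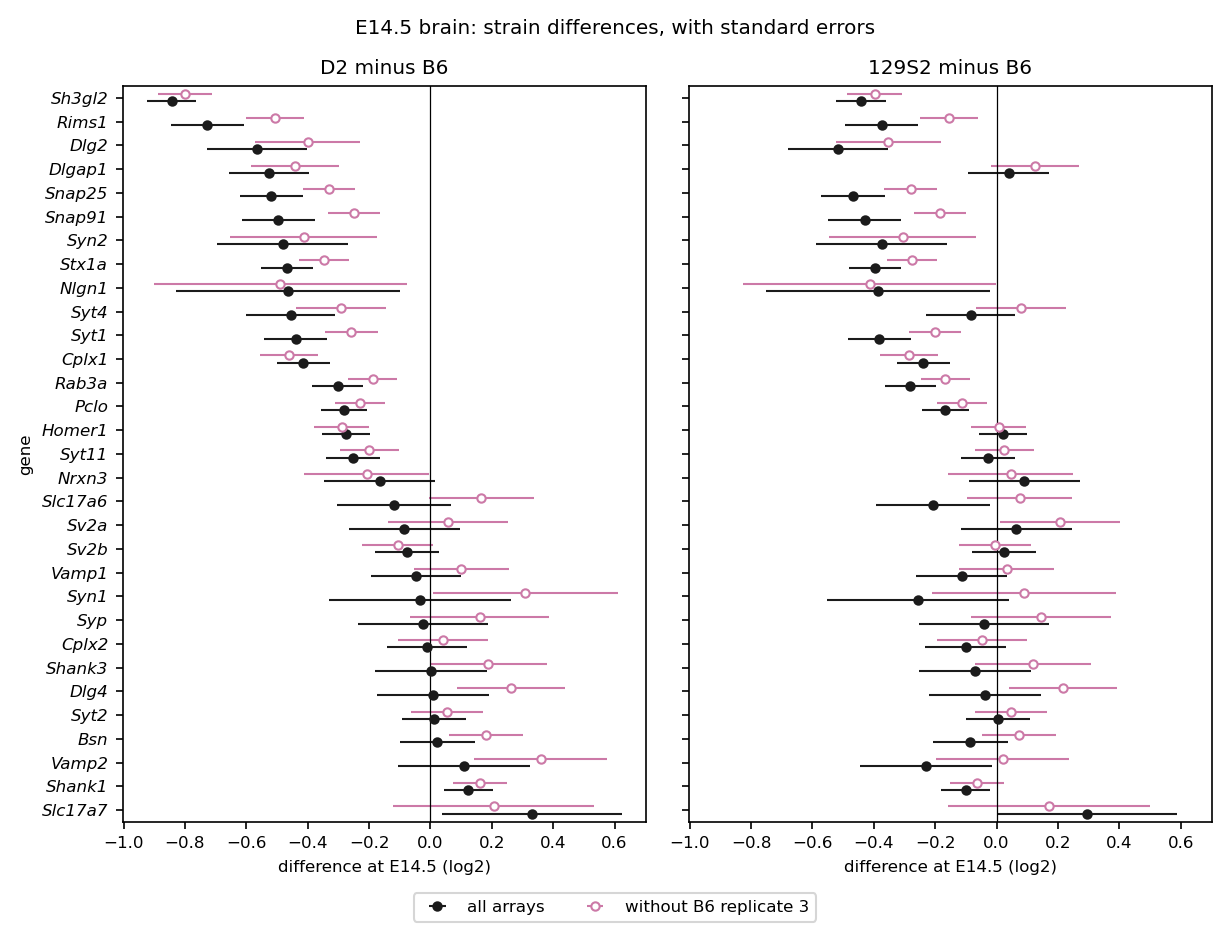
Difference from B6 at E14.5 of each gene in D2 (left) and 129S2 (right), in log2 units with the limma standard error; filled points use all arrays and open points leave out B6 replicate 3. Sh3gl2 is lowest in the left panel at -0.84, or -0.80 without that array, and many open points lie nearer 0 than the filled ones.

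These counts depended on B6 replicate 3, the array with high neuronal markers. Without it 8 of the 14 genes were still lower in D2 (Sh3gl2, Rims1, Snap25, Stx1a, Syt1, Cplx1, Dlgap1 and Homer1) and 3 of the 8 in 129S2 (Sh3gl2, Snap25 and Stx1a). The share of all genes passing without that array is not given here. The median difference over the 31 genes was -0.25 with and -0.20 without it in D2, and -0.11 and 0.01 in 129S2, against 0.04 and 0.01 over all genes tested with all arrays. Probe sets differed as well. Of the 14 genes, 13 had further probe sets past the filter, and 26 of those 29 probe sets were lower in D2, 7 of them past the adjusted p. The further probe sets of Pclo gave -0.95 and -0.85 where the chosen one gave -0.28. The second probe set of Stx1a gave -0.13, and those of Syt11 lay between -0.21 and 0.19. Outside the 14, a further probe set of Syn2 passed where the chosen one did not. It gave -0.57 in D2 (limma, adjusted p = 0.0019) and -0.45 in 129S2 (limma, adjusted p = 0.020). In 129S2 a further probe set of Pclo passed too, at -0.53 (limma, adjusted p = 0.0096), where the chosen one did not.

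Marker genes were read beside these differences. In D2 against B6 at E14.5, 0 of 8 neuronal markers passed the adjusted p and their median was -0.17 log2 units, while 2 of 7 markers of progenitors and new neurons were higher, 1 lower, and their median was 0.36. In 129S2 against B6, 2 of 8 neuronal markers were lower (median -0.17) and 3 of 7 progenitor markers higher (median 0.52). The mean level of the neuronal list ran over arrays from 11.22 to 11.68 in B6, 11.17 to 11.31 in D2 and 11.02 to 11.16 in 129S2, and that of the progenitor list from 10.66 to 11.30, 11.03 to 11.54 and 11.04 to 11.66. Their part in the strain differences was not tested.

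Among the further synaptic genes, 11 of 30 presynaptic ones were lower in D2 than in B6 at E14.5 by adjusted p and 7 of 30 in 129S2, against 7.53% and 5.47% of all genes tested, and none was higher. Of 25 postsynaptic ones, 4 were lower and 1 higher in D2, and 1 lower and 2 higher in 129S2, where 10% and 4.89% of all genes tested were higher in D2 and in 129S2. Doc2b, a calcium sensor of spontaneous release, was called in both, at -0.81 ± 0.15 in D2 and -0.78 ± 0.15 in 129S2 (limma, adjusted p = 0.00032 and 0.00094). Lrrtm1, a postsynaptic adhesion protein, was lower in D2 than in B6 by -0.93 ± 0.14 (limma, adjusted p = 1.94e-05) and higher in 129S2 than in D2 by 0.69 ± 0.14 (limma, adjusted p = 0.0021). Its relative Lrrtm2 was lower in D2 by -0.60 ± 0.16 (limma, adjusted p = 0.0089). The comparisons with B6 include its replicate 3, and values without that array are not given here for these further genes.

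After birth no gene of the 31 was called between strains. Among all genes at P1, 1.3% were called for D2 against B6, 1.24% for 129S2 against B6 and 1.36% for 129S2 against D2. The P7 shares, in the same order, were 1.45%, 1.32% and 1.11%. With limma, an unadjusted p below 0.05 was reached at P1 by 0, 0 and 2 of the 31, and at P7 by 4, 3 and 1. At P90 the shares called were 1.95%, 1.72% and 1.45%, and 6, 7 and 3 of the 31 reached that unadjusted p. The median difference over the 31 genes lay between -0.06 and 0.06 log2 units in the 9 postnatal comparisons. Of the further synaptic genes, Camk2a, the alpha subunit of the kinase abundant in the density, was called at P7, higher in 129S2 than in B6 by 0.77 ± 0.10 (limma, adjusted p = 6.88e-06).

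Of the 31 genes, Syt2 passed the adjusted p at P90. Its arrays read 7.57, 7.38 and 7.44 in B6, 7.81, 7.81 and 8.27 in D2, and 8.02, 7.91 and 7.91 in 129S2, so that B6 lay below both others without overlap. D2 was higher by 0.50 ± 0.10 (limma, adjusted p = 0.0023; 2.96% of all genes tested passed in that direction) and 129S2 by 0.48 ± 0.10 (limma, adjusted p = 0.0037; 2.46%), both under 1.5-fold. Slc17a7 had a larger D2 minus B6 difference, -0.63 ± 0.29, with arrays of 11.05, 10.98 and 10.89 in B6, 10.15, 10.61 and 10.27 in D2, and 11.07, 11.00 and 10.84 in 129S2. D2 lay below both others without overlap, but limma over the 36 arrays gave an adjusted p of 0.32. With limma fitted to the 9 arrays of P90 alone its SE was 0.11 and it was called against both B6 (adjusted p = 0.0037) and 129S2 (adjusted p = 0.0068). In that fit 8 of the 31 genes passed the adjusted p in D2 against B6 (12.5% of all genes tested), Syt2 higher and Slc17a7, Sh3gl2, Rims1, Stx1a, Syt1, Sv2b and Dlgap1 lower, in place of 1. It passed 4 in 129S2 against B6 (10.8%) and 3 in 129S2 against D2 (8.74%).

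Averaged over the 4 stages, none of the 31 was called for D2 against B6 (1.26% of all genes), 129S2 against B6 (1.26%) or 129S2 against D2 (1.06%), and limma gave unadjusted p below 0.05 for 10, 7 and 6. Whether the strain differences varied with stage was tested with limma as an interaction, called at an adjusted p below 0.05 where the widest spread of a strain difference between stages reached 1.5-fold. Of the 31, 3 were called (4.72% of all genes tested): Sh3gl2, Cplx1 and Syt4.

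For Sh3gl2 the D2 minus B6 difference was -0.84 log2 units at E14.5 and, in the order of the later stages, -0.14, -0.11 and -0.24 (interaction by limma, adjusted p = 0.00091). On the mean of all its probe sets the spread was 0.71 in place of 0.74 and the call was lost (limma, adjusted p = 0.075). Cplx1 read 11.91, 11.68 and 11.65 in B6 and 11.26, 11.46 and 11.27 in D2 at E14.5, and 12.41, 12.32 and 12.40 against 12.67, 12.49 and 12.52 at P7. D2 thus lay below B6 at E14.5 and above it at P7, without overlap at either stage, with differences of -0.41 and 0.19 (interaction by limma, adjusted p = 0.015). That call was lost with array weights, on the mean of all probe sets and on leaving out any of 5 single arrays, among them B6 replicate 1 at E14.5, where the spread was 0.52 in place of 0.60. Syt4 in 129S2 minus D2 was 0.37, 0.10, 0.34 and -0.48 in stage order (interaction by limma, adjusted p = 0.021). At P90 its arrays read 10.28, 10.16 and 9.85 in 129S2 and 10.52, 10.59 and 10.62 in D2, without overlap. Without 129S2 replicate 3 at P90 the spread was 0.73 and the call was lost (limma, adjusted p = 0.060).

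**Figure D4:**
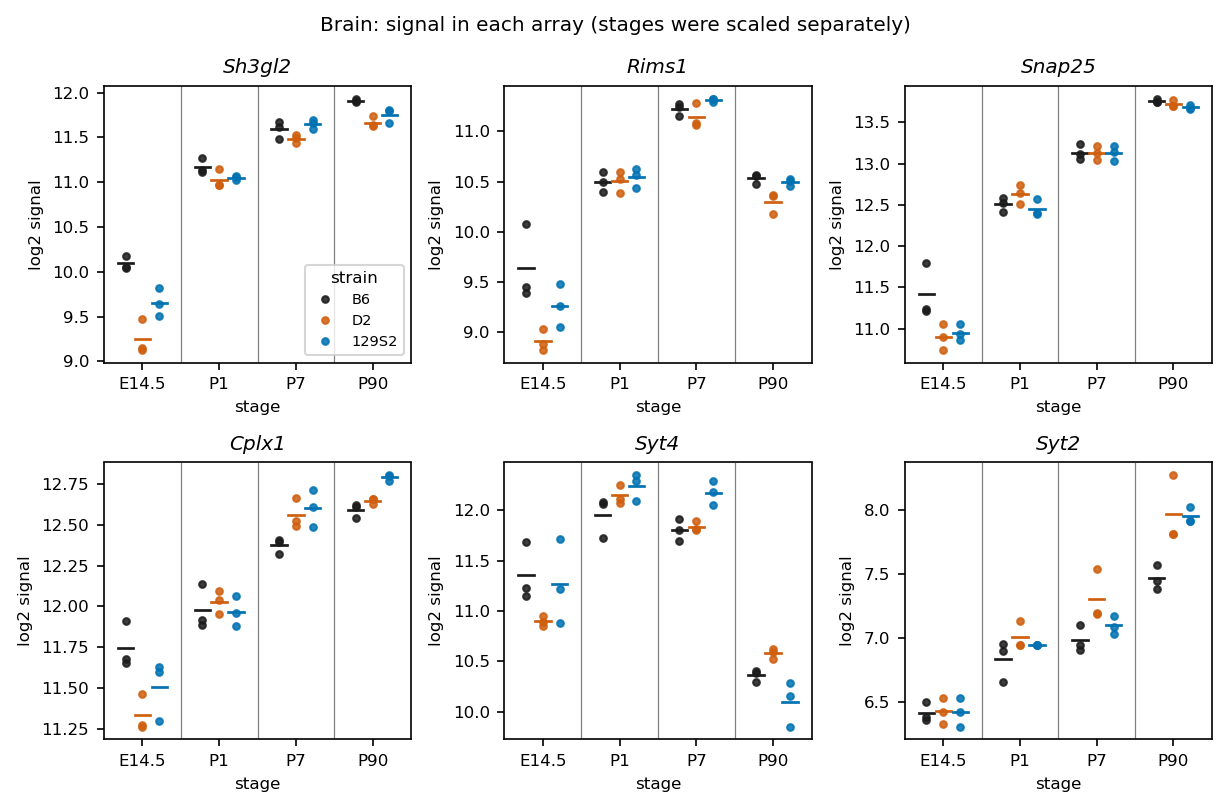
Deposited log2 signal of 6 genes in each brain array (dots) with group means (bars), by stage and strain; stages were normalized apart, so strains may be compared within a stage only. At E14.5 Sh3gl2 is lowest in D2 (9.13 to 9.47), at P90 Syt2 is lowest in B6 (7.38 to 7.57), and B6 replicate 3 stands above its group in Rims1 (10.08) and Snap25 (11.79).

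The same genes were read in liver, which has no central synapses. After quantile normalization of all 72 arrays, 21 of the 31 genes were at least 2-fold higher in brain than in liver in each strain at E14.5 (16.4% of 15071 genes tested in either tissue) and 28 at P90 (21.2%). The median brain minus liver difference was 2.23 log2 units at E14.5 and 4.98 at P90, against -0.17 and -0.16 over all genes tested. At E14.5, 16 of the 31 had a liver level under the limit of 6.66, Snap25, Snap91 and Slc17a6 among them, and at P90 25 had, so that their differences are limited by background in liver. Of genes above that limit in liver at both stages, Syt1 differed by 3.50 ± 0.23 (SD, n = 3 strains) at E14.5 and 4.98 ± 0.75 at P90, Cplx1 by 1.53 ± 0.24 and 4.98 ± 0.13, and Homer1 by 1.12 ± 0.21 and 2.84 ± 0.08. Rab3a differed by 1.01 ± 0.16 and 1.03 ± 0.16. The probe set of Nrxn3 did not differ 2-fold between tissues at any stage (-0.33 ± 0.11 at P90). That of Shank1 was at least 2-fold lower in brain in each strain at P90 (-1.16 ± 0.02), as were 3038 of the 15071 genes tested. Its P90 liver level, 5.55, was under the limit.

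Of the 31, 17 passed the dim filter in liver, and 3 of them were called between strains within a liver stage. Over the 12 liver comparisons that was 5 calls in 204 tests of these genes, or 2.45%, against 5.68% of the tests of all genes. Syt1 at P90 read 8.68, 8.40 and 8.31 in 129S2 liver, 7.06, 6.73 and 7.02 in B6, and 7.23, 7.26 and 6.96 in D2. 129S2 was above both without overlap, by 1.53 ± 0.12 and 1.32 ± 0.12 log2 units (limma, adjusted p = 5.05e-11 and 1.65e-09). Stx1a was higher in D2 than in B6 liver at E14.5, with 9.05, 8.86 and 8.83 against 8.08, 7.93 and 8.25, and at P1, by 0.82 ± 0.14 and 0.65 ± 0.14 (limma, adjusted p = 8.69e-05 and 0.00088). In E14.5 brain the same gene was lower in D2 than in B6. Syt11 was lower in 129S2 than in B6 liver at P90 by -0.63 ± 0.19 (limma, adjusted p = 0.016). Averaged over liver stages none of the 17 was called for D2 against B6 (2.7% of all genes), 129S2 against B6 (3.28%) or 129S2 against D2 (2.72%), where limma gave unadjusted p below 0.05 for 6, 4 and 4.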

How the data were processed

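The authors deposited log2 signal of Affymetrix arrays computed with RMA, per the submitters' processing notes, for 45101 probe sets on 72 arrays; the RMA version is not given in the sources used here. Within a tissue and stage, 1.55 to 4.35% of probe sets held values equal to the last digit between arrays, and none did otherwise, so 8 sets of 9 arrays had been normalized apart. The platform annotation named 34958 probe sets by 1 symbol, 932 by several and left 9211 unnamed. Strains were tested in limma 3.58.1 (R 4.3.3) with 1 coefficient per group and Benjamini-Hochberg adjustment over all genes past the filter, 14181 in brain and 13145 in liver, and the code was tested on simulated data. Stages and tissues, which the separate normalization confounds with scale, were compared by size after quantile normalization. All 32 listed genes were to be described; of other synaptic genes the 3 with the largest change per list and those called within a stage were named. The genes and lists were chosen with earlier results of these data known. No 2 arrays were identical (highest correlation 0.998). Alternatives were other filters, scalings, variance models, probe set rules, a replicate block and each array left out.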

Additional observations from a re-analysis of the deposited data

Results flagged for a closer look

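The strain differences of 5 gene and tissue pairs varied with stage by limma's interaction test (adjusted p below 0.05 and a spread of at least 1.5-fold), given here as the widest spread of a strain difference between stages in log2 units. In brain these were Syt4 at 0.85, a vesicle protein of the synaptotagmin family, Sh3gl2 at 0.74 and Cplx1 at 0.60. In liver they were Syt1 at 1.58 (limma, adjusted p = 8.22e-08), highest in adult 129S2, and Stx1a at 0.61 (limma, adjusted p = 0.045). The 129S2 minus B6 difference of Stx1a was 0.48 at P1 and -0.13 at P7. The brain calls were 3 of 31, against 4.72% of all genes tested. The liver calls were 2 of 17, and the share of all liver genes called is not given here.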

How the results depend on the processing

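Of 627 values compared for the main results, 591 kept their direction and side of the threshold or stayed within the spread between strains, 34 moved and 2 reversed; the cause was not tested except where the construction shows it. Strain calls within brain stages, 2 over all arrays, numbered 6 on the mean of probe sets, 4 with array weights and 27 with no fold minimum, and 1 to 6 when single arrays were left out: 6, 5 and 1 without B6 E14.5 replicates 1, 2 and 3, and 5 without D2 E14.5 replicate 3. Calls averaged over stages, 0 (also 0 to 0 with an array left out), numbered 13 with no fold minimum. Interaction calls, 3, numbered 5 with array weights and 5 with no fold minimum, and 2 to 7 with an array left out (2 without D2 E14.5 replicate 3, B6 P7 replicate 2, D2 P7 replicate 1 or 129S2 P90 replicate 3; 6 and 7 without B6 E14.5 replicates 1 and 2; 5 without 129S2 E14.5 replicate 3, D2 E14.5 replicate 2 or D2 P1 replicate 1). Genes lower in D2 than in B6 at E14.5, 14, numbered 9 on the mean of probe sets and 8 to 14 with an array left out (8 without B6 replicate 3). They numbered 1 in the fit to the 9 arrays, which has fewer samples and its own estimate of the spread. There the SE of Sh3gl2 was 0.12 in place of 0.08. Genes lower in 129S2 than in B6, 8, numbered 3 on the mean of probe sets, 5 with array weights, and 0 in the fit to the 9 arrays (8 at an unadjusted limma p below 0.05). With an array left out they numbered 3 to 8: 3 without B6 replicate 3, and 5 and 4 without 129S2 replicates 1 and 2.

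As deposited, the presynaptic medians were 0.76 for P1 minus E14.5, 0.55 for P7 minus P1, -0.12 for P90 minus P7 and 1.16 for P90 minus E14.5, and the postsynaptic ones -0.31 and 1.53 for the last 2. Centring each array on its median gave 0.69 and 2.02 presynaptic and 0.49 postsynaptic (P90 minus P7). Quantile normalization of all 72 arrays gave 0.54 presynaptic for P7 minus P1. The mean of probe sets gave 0.66 presynaptic for P90 minus P7 and 0.24 postsynaptic for P7 minus P1. With single arrays left out, the 4 presynaptic medians ranged over 0.79 to 0.94, 0.47 to 0.50, 0.44 to 0.49 and 1.79 to 1.85, the postsynaptic ones over 0.97 to 1.02, 0.34 to 0.51, 0.32 to 0.43 and 2.21 to 2.31, and the genes counted from E14.5 to P90 over 21 to 22. Genes higher in brain than in liver ranged over 20 to 21 at E14.5 and 28 to 28 at P90.

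Same-numbered arrays did not deviate together throughout (16 of 36 correlations above 0.1), so the numbers were not taken as pairs. Their mean correlation was 0.11, against -0.06 for arrays of different numbers. By stage, 2 of 9 were above 0.1 at E14.5, 5 at P1, 7 at P7 (up to 0.67) and 2 at P90. A shared deviation by number was thus more frequent at P1 and P7. With the replicate block the calls were 2, 0 and 3, and 14 and 7 genes were lower in D2 and 129S2. Genes near background (Shank1, Syt2, Nlgn1 at E14.5, and Slc17a7, whose E14.5 brain signal was like that of liver) limit what their differences show.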

Other observations

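Replicate numbers marked a shared deviation of single genes at some stages. Nlgn1 was high in replicate 3 of each strain at P1, at 8.05 in B6, 8.62 in D2 and 8.06 in 129S2, where the other 6 arrays lay between 7.23 and 7.65 log2 units. At P7 it was high in replicate 2 of each strain. Slc17a7 at P7 was lowest in replicate 1 of each strain, at 8.87, 9.09 and 9.56.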
